A study of Mus musculus with 24 samples.

Results

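Megakaryocyte and platelet genes were followed through 4 sorted mouse blood progenitor populations with and without Ikaros. The 10 genes are Itga2b, Itgb3, Gp9, Gp5, Gp6, F2rl2, Selp, Vwf, Pf4 and Mmrn1. They were chosen by name, with earlier results of these data known, so counts among them are a description. Each symbol is the sole annotation of at least 1 probe set on the array. They are 10 of 18193 genes measured. All 10 were found, with 15 probe sets between them. RNA was hybridised to 24 Affymetrix one-colour arrays, 3 for each of 8 groups. The Ikaros-null (KO) and wild-type (WT) groups were each sorted into LSK GFPneg-lo, LSK GFPhi, LK GFPneg and LK GFPhi cells. LSK stands for lineage-negative, Sca-1-positive, Kit-positive cells and LK for lineage-negative, Kit-positive cells. All 8 groups carry the same transgene, an Ikaros-based GFP reporter (line B-p-GFP-C), and the sort used its brightness. The labels equate LSK GFPneg-lo with HSC, LSK GFPhi with LMPP, LK GFPneg with MEP and LK GFPhi with GMP, that is stem cells, lymphoid-primed multipotent progenitors, megakaryocyte and erythroid progenitors, and granulocyte and monocyte progenitors. The null allele came from the I74 line on C57BL/6 x 129SV and the reporter from a line on C57BL/6 x C3H, so strain and genotype cannot be told apart. Ages are not stated, nor is whether an array stands for 1 mouse or a pool, so the p-values below measure the spread between arrays.

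Megakaryocytes are large bone marrow cells that shed platelets into the blood. They arise from stem cells, in part by way of progenitors they share with red cells, and part of the stem cell pool already carries RNA of this lineage, such as Vwf and Itga2b. On platelets, surface receptors bind collagen, von Willebrand factor, thrombin and fibrinogen, and alpha granules release adhesion proteins and chemokines when the platelet is activated. Itga2b and Itgb3 encode the subunits of the fibrinogen receptor, Gp9 and Gp5 parts of the receptor for von Willebrand factor, Gp6 a collagen receptor and F2rl2 a thrombin receptor. Selp (P-selectin), Vwf (von Willebrand factor), Pf4 (a platelet chemokine) and Mmrn1 (multimerin) are proteins of the alpha granule. Selp, Vwf and Mmrn1 are made by endothelial cells too. Ikaros is a DNA-binding zinc finger protein of blood cells, and its gene is Ikzf1.

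RefSeq promoter sequence was given for 8 of the 10 genes, with none for Itgb3 and Vwf. The 250 bases before the transcription start are printed for 5 genes, on build GRCm38.p6, 5′ to 3′ on the strand of the gene. They are Selp and Itga2b, whose RNA was higher in both GFPhi populations of KO mice, F2rl2, which was higher in KO LSK GFPneg-lo cells, Mmrn1, which was lower in KO LK GFPneg cells, and Pf4, which passed no test between genotypes. Capitals mark matches on either strand to 4 short motifs. These are the GATA motif (AGATAA or TGATAA), the ETS motif AGGAAG, the RUNX motif TGTGGT and the Ikaros core TGGGAA.
Selp, chr1:164115014-164115263, plus strand: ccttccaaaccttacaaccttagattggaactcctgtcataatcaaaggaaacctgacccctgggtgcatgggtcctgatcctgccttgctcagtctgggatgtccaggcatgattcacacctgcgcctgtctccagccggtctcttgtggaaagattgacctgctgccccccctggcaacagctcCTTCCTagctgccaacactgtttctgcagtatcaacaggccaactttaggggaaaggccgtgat
Itga2b, chr11:102469884-102470133, minus strand: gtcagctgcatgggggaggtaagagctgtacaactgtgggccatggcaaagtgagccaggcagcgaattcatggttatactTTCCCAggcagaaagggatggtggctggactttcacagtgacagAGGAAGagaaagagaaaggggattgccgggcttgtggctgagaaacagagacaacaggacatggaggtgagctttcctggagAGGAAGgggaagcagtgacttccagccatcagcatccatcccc
F2rl2, chr13:95696670-95696919, plus strand: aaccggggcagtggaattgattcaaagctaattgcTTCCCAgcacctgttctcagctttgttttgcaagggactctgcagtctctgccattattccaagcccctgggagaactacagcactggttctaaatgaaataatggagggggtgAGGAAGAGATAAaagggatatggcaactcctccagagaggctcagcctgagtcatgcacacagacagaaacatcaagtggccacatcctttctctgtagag
Mmrn1, chr6:60944067-60944316, plus strand: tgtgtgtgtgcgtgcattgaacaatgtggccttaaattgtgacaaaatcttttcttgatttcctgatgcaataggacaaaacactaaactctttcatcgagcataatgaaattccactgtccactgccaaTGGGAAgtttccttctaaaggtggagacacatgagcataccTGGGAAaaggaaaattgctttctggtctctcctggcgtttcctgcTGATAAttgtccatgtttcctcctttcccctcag
Pf4, chr5:90772185-90772434, plus strand: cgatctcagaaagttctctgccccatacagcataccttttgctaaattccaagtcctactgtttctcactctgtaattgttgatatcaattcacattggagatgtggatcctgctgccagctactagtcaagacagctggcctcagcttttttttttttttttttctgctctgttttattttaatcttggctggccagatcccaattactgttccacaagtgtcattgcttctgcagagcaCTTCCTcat
The single capital run in the Selp stretch is an ETS match 64 to 59 bases before the start. In Itga2b the first run is an Ikaros core and the other two are ETS matches, 125 to 120 and 43 to 38 bases before the start. F2rl2 has an Ikaros core and then an ETS and a GATA match side by side, which read as 1 run of capitals. Mmrn1 has a pair of Ikaros cores and a GATA match. Pf4 has an ETS match 9 to 4 bases before the start. Over the 8 promoters, the ETS motif was found in 6, against 29.5% of 32851 RefSeq promoter stretches of the same length. The GATA motif was found in 4 (16.6% of all stretches), the Ikaros core in 4 (21.6%) and the RUNX motif in 1, that of Gp9 (14% of all stretches). These matches describe letters in a short window, and no binding was measured.

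Ikzf1 itself was 7.24 to 8.40 on the log2 scale as a group mean in KO cells and 11.15 to 11.84 in WT cells, with differences of -3.45 to -4.34. Arrays of a group correlated at r = 0.979 to 0.996 across genes. The genotypes also differed in Y-linked RNA. Eif2s3y averaged 5.11 to 6.44 in the KO groups, with arrays as low as 3.99, and 8.79 to 9.57 in the WT groups. The sex makeup of the groups therefore differed, and its part in the results was not tested beyond a fit with the Eif2s3y level as a covariate. All values below are RMA signals on the log2 scale for the brightest probe set of a gene. A difference is the mean of the first group minus that of the second, ± the standard error from limma, and an adjusted p below 0.05 made a call.

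**Figure D1:**
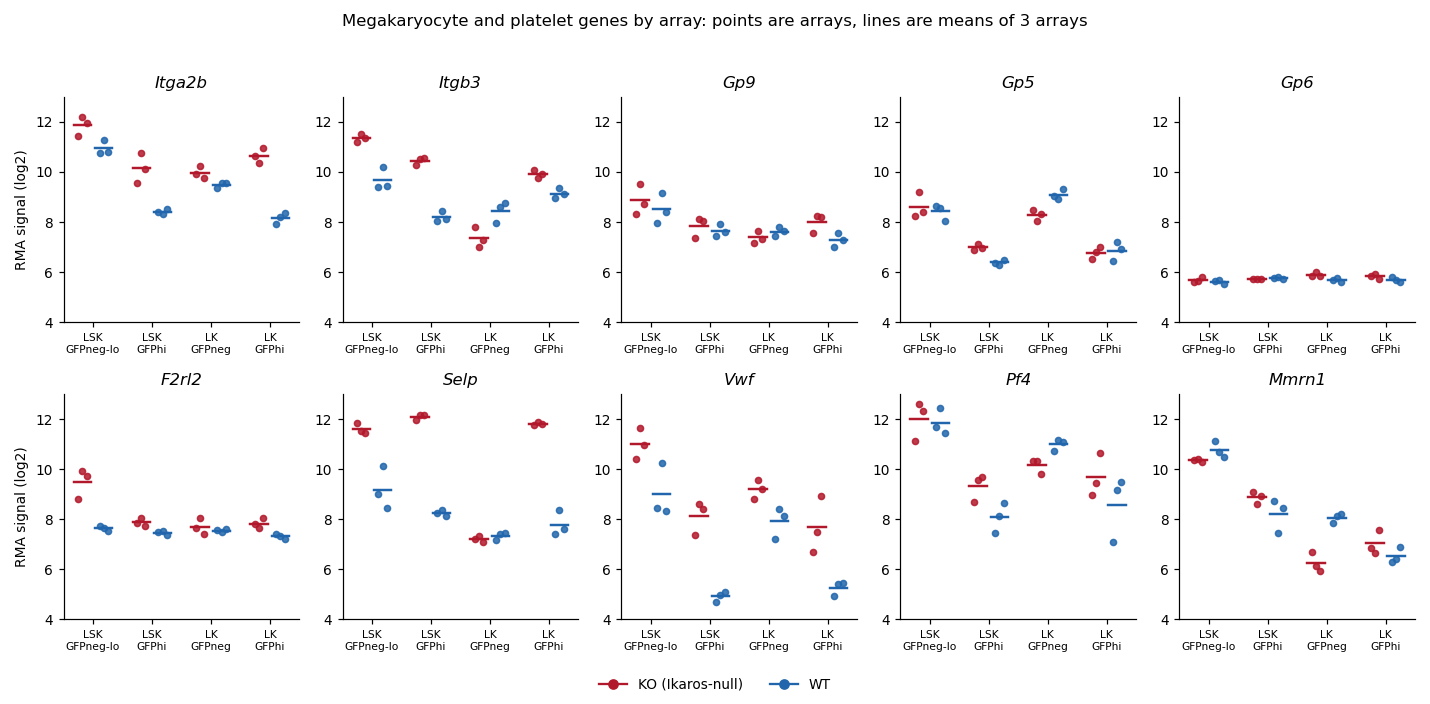
RMA signal (log2) of the 10 genes on each of the 24 arrays, with KO arrays in red to the left of WT arrays in blue in each population. Points are arrays and lines are means of 3 arrays. Selp lies at 11.4 or above on all KO arrays except those of LK GFPneg, where both genotypes lie near 7, and Gp6 stays between 5.52 and 6.01 everywhere.

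The 10 genes differed in which of the 8 groups held their highest level. Itga2b, Itgb3, Vwf, Pf4, Gp9 and F2rl2 had their highest mean in KO LSK GFPneg-lo cells, Selp in KO LSK GFPhi cells, Mmrn1 in WT LSK GFPneg-lo cells, Gp5 in WT LK GFPneg cells and Gp6 in KO LK GFPneg cells. The distance between the highest and lowest group means was largest for Vwf, at 6.09, and lay between 3.70 and 4.88 for Itga2b, Pf4, Itgb3, Mmrn1 and Selp. It was 2.70 for Gp5, 2.16 for F2rl2, 1.58 for Gp9 and 0.28 for Gp6. Among all genes measured, the spans of Vwf, Selp and Mmrn1 lay at the 99.9th, 99.4th and 99.2nd percentile and that of Gp6 at the 26.4th. RMA values carry no detection call, so whether Gp6 RNA was detected at all is not known.

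In the KO LSK GFPneg-lo cells, 4 of the 10 genes rose and 0 fell against WT, where 1.26% of all genes were called higher and 0.879% lower. The median difference of the 10 was 0.64, against 0.03 for all genes. In KO LSK GFPhi cells 4 rose and 0 fell, where 2.91% of all genes were called higher and 1.69% lower, with a median of 0.95 against 0.01. In KO LK GFPhi cells 4 rose and 0 fell, where 5.78% of all genes were called higher and 3.79% lower, with a median of 0.75 against 0.07. In KO LK GFPneg cells, the population labelled MEP, 0 rose, 2 fell and 8 were not called, where 1.2% of all genes were called higher and 1.45% lower. The median was -0.19 against 0.04, and 4 of the 10 differences were positive. Selp, Vwf and Itgb3 rose in all 3 of the other populations, Itga2b rose in both GFPhi populations and F2rl2 in LSK GFPneg-lo. The calls of Vwf in LSK GFPneg-lo and LK GFPhi were lost in some settings, as given below. So were those of Itgb3 in LK GFPhi and LK GFPneg. Gp9, Gp5, Gp6 and Pf4 were called in none of the 4 comparisons. In sorted bulk cells, more cells that carry a transcript and more of that transcript in each cell cannot be told apart.

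**Figure D2:**
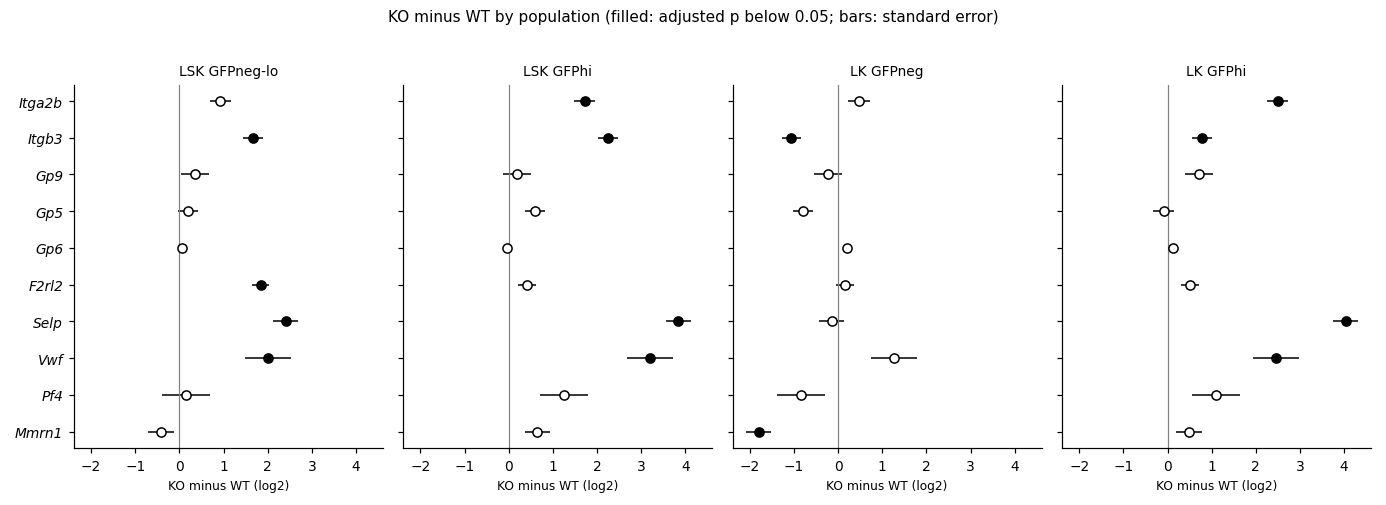
Difference KO minus WT (log2) of the 10 genes in each population, with standard errors as bars. Filled points have an adjusted p below 0.05 over all genes. Filled points lie right of 0 in LSK GFPneg-lo, LSK GFPhi and LK GFPhi, and left of 0 for Itgb3 and Mmrn1 in LK GFPneg.

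Both genes of the fibrinogen receptor rose in the GFPhi populations. Itga2b, also known as CD41, is an early marker of the lineage and is carried by some stem cells. It read 11.45, 12.20 and 11.95 on the KO LSK GFPneg-lo arrays, against 10.76, 11.26 and 10.79 on the WT ones. In LSK GFPhi it read 9.54, 10.76 and 10.11 on KO arrays, against 8.42, 8.31 and 8.52 on WT arrays. The KO arrays lay above the WT arrays in both populations without overlap. In LK GFPneg the KO values were 9.91, 10.22 and 9.77 and the WT values 9.36, 9.55 and 9.57. In LK GFPhi the KO values were 10.62, 10.37 and 10.96 and the WT values 7.93, 8.19 and 8.38. Here too no KO array overlapped a WT array, and the KO LK GFPhi mean of 10.65 ± 0.30 came within 0.29 of the WT LSK GFPneg-lo mean of 10.94 ± 0.28 (SD, n = 3 each), with overlapping arrays. The differences were 1.72 ± 0.24 in LSK GFPhi (3.3-fold, adjusted p = 9.86e-05) and 2.49 ± 0.24 in LK GFPhi (5.60-fold, adjusted p = 1.19e-06). They were 0.93 ± 0.24 in LSK GFPneg-lo (adjusted p = 0.0517) and 0.47 ± 0.24 in LK GFPneg (adjusted p = 0.555). The LSK GFPneg-lo difference passed with the replicate number as a block (adjusted p = 0.011), as it did without WT LSK GFPneg-lo replicate 2 (adjusted p = 0.0366) or without KO LSK GFPneg-lo replicate 1 (adjusted p = 0.0229). It also passed with the Eif2s3y covariate (0.0294), array weights (0.00259), the dimmest genes left out (0.0485), the mean of a gene's probe sets (0.0427) or median centring (0.0466).

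Itgb3 encodes the partner subunit, which also pairs with another alpha chain on other cells. It read 11.20, 11.50 and 11.35 on KO LSK GFPneg-lo arrays, against 9.40, 10.18 and 9.45 on WT arrays. In LSK GFPhi the KO values were 10.28, 10.52 and 10.54 and the WT values 8.05, 8.43 and 8.11. The gap between KO and WT arrays was wider than the range of either group in both. In LK GFPneg the KO values were 7.80, 7.02 and 7.29, against WT values of 7.95, 8.60 and 8.74, so that the KO arrays were the lower ones. In LK GFPhi the KO values were 10.09, 9.74 and 9.92 and the WT values 8.94, 9.34 and 9.12. Itgb3 thus rose by 1.67 ± 0.22 in LSK GFPneg-lo (3.19-fold, adjusted p = 0.000155), by 2.25 ± 0.22 in LSK GFPhi (4.77-fold, adjusted p = 1.15e-06) and by 0.78 ± 0.22 in LK GFPhi (1.72-fold, adjusted p = 0.0321). It fell in LK GFPneg (-1.06 ± 0.22, 2.08-fold lower, adjusted p = 0.010). The KO LK GFPneg mean of 7.37 ± 0.40 (SD, n = 3) was its lowest of the 8 groups. The LK GFPneg call was lost without WT LK GFPneg replicate 2 (adjusted p = 0.0569) or 3 (0.0827) and without KO LK GFPneg replicate 2 (0.0616), and in a fit of those 6 arrays alone (0.163). The LK GFPhi call was lost without WT LK GFPhi replicate 1 (0.129) or 3 (0.0891) and without KO LK GFPhi replicate 1 (0.0827) or 3 (0.0875), and with the Eif2s3y covariate (0.144) or median centring (0.0712). A second, dimmer probe set of Itgb3 stayed between 6.31 and 6.73 on all 24 arrays and was called in no comparison.

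Gp9 and Gp5 belong to the complex that binds von Willebrand factor. In KO LSK GFPneg-lo cells Gp9 read 8.34, 9.52 and 8.72, against 7.96, 9.16 and 8.41 in WT cells. In LSK GFPhi the KO values were 7.35, 8.14 and 8.04 and the WT values 7.43, 7.93 and 7.59. For LK GFPneg they were 7.18, 7.64 and 7.34 in KO, against 7.44, 7.79 and 7.63 in WT, and for LK GFPhi 7.55, 8.23 and 8.20 in KO, against 6.99, 7.58 and 7.27 in WT. KO and WT arrays of Gp9 overlapped in every population. The differences, in the same order, were 0.35, 0.19, -0.23 and 0.71 (± 0.31 each, adjusted p between 0.151 and 0.972). With the replicate number as a block, the LK GFPhi difference of 0.71 passed (adjusted p = 0.00228). Gp5 was high in the LSK GFPneg-lo and LK GFPneg populations of both genotypes. It read 8.49, 8.04 and 8.34 on KO LK GFPneg arrays, against 9.04, 8.91 and 9.31 on WT arrays. All KO arrays lay below all WT arrays there, with a difference of -0.80 ± 0.23 that missed the threshold (adjusted p = 0.0732) and passed under the replicate block (adjusted p = 0.0429). In LSK GFPhi it read 6.88, 7.11 and 6.98 on KO arrays and 6.38, 6.29 and 6.50 on WT arrays, a difference of 0.60 ± 0.23 that was not called (adjusted p = 0.199) and passed in a fit of those 6 arrays alone (adjusted p = 0.0266). In LSK GFPneg-lo and LK GFPhi the Gp5 differences were 0.19 ± 0.23 and -0.09 ± 0.23, with overlapping arrays.

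Gp6, the collagen receptor gene, lay between 5.52 and 6.01 on every array. Its differences ranged between -0.04 and 0.21 (± 0.08 each), and none was called. F2rl2 encodes a thrombin receptor of mouse platelets. It read 8.80, 9.91 and 9.72 on KO LSK GFPneg-lo arrays, against 7.73, 7.64 and 7.53 on WT arrays. The arrays of all other groups lay between 7.21 and 8.04, so KO LSK GFPneg-lo stood above every other group without overlap. The difference there was 1.84 ± 0.20 (3.57-fold, adjusted p = 1.24e-05). In the other populations it was 0.41, 0.16 and 0.51 in LSK GFPhi, LK GFPneg and LK GFPhi (± 0.20 each, adjusted p = 0.451, 0.907 and 0.120). With the Eif2s3y covariate the LK GFPhi difference was 0.74 and passed (adjusted p = 0.0276). A second probe set gave 6.08, 7.55 and 6.99 on the KO LSK GFPneg-lo arrays, against 6.41, 5.84 and 5.56 on the WT ones, with overlap and a difference of 0.94 ± 0.31 that was not called.

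Among the granule proteins, Selp had the widest KO differences of the 10 genes in LSK GFPneg-lo, LSK GFPhi and LK GFPhi. P-selectin is held in alpha granules and moves to the platelet surface, where it binds leukocytes. It read 11.84, 11.52 and 11.43 on KO LSK GFPneg-lo arrays, against 9.01, 10.12 and 8.43 on WT arrays. In LSK GFPhi the KO values were 11.96, 12.15 and 12.15, against WT values of 8.26, 8.37 and 8.11. In LK GFPhi the KO values were 11.76, 11.89 and 11.79, against WT values of 7.41, 8.35 and 7.61. The 9 KO arrays of these populations all lay above the highest WT array of any population. In LK GFPneg both genotypes were low, at 7.21, 7.32 and 7.08 on KO arrays and 7.17, 7.42 and 7.46 on WT arrays. Selp rose by 2.41 ± 0.28 in LSK GFPneg-lo (5.32-fold, adjusted p = 2.75e-05), by 3.84 ± 0.28 in LSK GFPhi (14.3-fold, adjusted p = 2.22e-08) and by 4.03 ± 0.28 in LK GFPhi (16.3-fold, adjusted p = 1.01e-08). In LK GFPneg the difference was -0.15 ± 0.28 (adjusted p = 0.946). These 3 calls held in each of the 10 alternatives and with each of the 6 arrays left out in turn. The other two probe sets of Selp gave 1.96 and 2.13 in LSK GFPneg-lo, 3.82 and 4.82 in LSK GFPhi, then -0.09 and -0.32 for LK GFPneg, and 3.20 and 4.44 for LK GFPhi. Of these, 2.13 in LSK GFPneg-lo (adjusted p = 0.227, over all probe sets) and both LK GFPneg values (0.990 and 0.974) were not called.

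Vwf encodes the large adhesion protein that tethers platelets to the vessel wall. It read 10.41, 11.65 and 10.98 on KO LSK GFPneg-lo arrays, against 8.46, 10.23 and 8.33 on WT arrays. In LSK GFPhi the KO values were 7.36, 8.60 and 8.41, against WT values of 4.70, 4.96 and 5.11. In both, the lowest KO array lay above the highest WT array, by a small margin in LSK GFPneg-lo. In LK GFPneg the KO values were 8.79, 9.57 and 9.22 and the WT values 7.23, 8.41 and 8.14. In LK GFPhi the KO values were 6.69, 7.51 and 8.93 and the WT values 4.94, 5.40 and 5.45. The KO LK GFPhi arrays spread most widely, with an SD of 1.13 (n = 3). Vwf rose by 3.20 ± 0.52 in LSK GFPhi (9.21-fold, adjusted p = 0.000473), by 2.45 ± 0.52 in LK GFPhi (5.45-fold, adjusted p = 0.00448) and by 2.01 ± 0.52 in LSK GFPneg-lo (4.02-fold, adjusted p = 0.0496). In LK GFPneg the difference of 1.27 ± 0.52 was not called (adjusted p = 0.349), and the arrays did not overlap. The LSK GFPneg-lo call was lost without WT LSK GFPneg-lo replicate 1 (adjusted p = 0.258) or 3 (0.251), without KO LSK GFPneg-lo replicate 2 (0.221) or 3 (0.146), in a fit of those 6 arrays alone (0.169), with the Eif2s3y covariate (0.0604) and after a further quantile normalization (0.0567). The LK GFPhi call was lost in a fit of those 6 arrays alone (0.0661). Tested over all probe sets, the LSK GFPneg-lo difference had an adjusted p of 0.0656 and was not called.

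Pf4 had its highest levels in LSK GFPneg-lo cells of both genotypes, at 11.11, 12.58 and 12.30 on KO arrays and 11.68, 12.42 and 11.43 on WT arrays. In LSK GFPhi it read 8.68, 9.57 and 9.70 on KO arrays, against 7.44, 8.14 and 8.63 on WT arrays. In LK GFPneg it read 10.33, 10.34 and 9.79 on KO arrays, against 10.72, 11.18 and 11.10 on WT arrays. The arrays did not overlap in LSK GFPhi and LK GFPneg, where KO was the higher in LSK GFPhi and the lower in LK GFPneg. In LK GFPhi it read 8.96, 9.43 and 10.63 on KO arrays and 7.09, 9.18 and 9.48 on WT arrays. The differences were 0.15, 1.25, -0.84 and 1.09 (± 0.54 each, adjusted p = 0.990, 0.319, 0.705 and 0.215), so none of the 4 was called.

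Mmrn1 encodes multimerin, a carrier of coagulation factor V in the alpha granule. It read 6.69, 6.13 and 5.92 on KO LK GFPneg arrays, against 7.84, 8.11 and 8.20 on WT arrays. The KO arrays lay well below the WT arrays, and the difference was -1.80 ± 0.29 (3.49-fold lower, adjusted p = 0.000589), called in all 10 alternatives and with each of the 6 arrays left out. In LSK GFPneg-lo it read 10.37, 10.41 and 10.27 on KO arrays, against 11.11, 10.68 and 10.49 on WT arrays. In LSK GFPhi it read 9.10, 8.59 and 8.92 on KO arrays and 8.71, 7.47 and 8.46 on WT arrays. In LK GFPhi it read 6.86, 6.67 and 7.57 on KO arrays and 6.29, 6.42 and 6.91 on WT arrays. The differences of -0.41, 0.65 and 0.49 (± 0.29 each) in these 3 populations were not called (adjusted p = 0.797, 0.328 and 0.299). A second, dim probe set lay between 3.63 and 4.05 on all arrays and was not called between genotypes.

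Whether the KO effect itself differed between populations was tested as an interaction. Between LK GFPhi and LK GFPneg it did so for 4 of the 10 genes, all with the effect higher in LK GFPhi, where 1.7% of all genes were called higher and 0.792% lower. The interaction was 4.17 ± 0.40 for Selp (adjusted p = 2.69e-06), 2.29 ± 0.40 for Mmrn1 (adjusted p = 0.00217), 2.02 ± 0.34 for Itga2b (adjusted p = 0.00162) and 1.84 ± 0.32 for Itgb3 (adjusted p = 0.00175). The median of the 10 was 1.51, against 0.03 for all genes, and 9 of the 10 were positive. Vwf (1.18 ± 0.74, adjusted p = 0.691) and Pf4 (1.93 ± 0.76, adjusted p = 0.296) were not called. Gp9, at 0.94 ± 0.43, passed under the replicate block alone (adjusted p = 0.0108). Between LK GFPneg and LSK GFPneg-lo the KO effect was lower in LK GFPneg for 3 genes and higher for 0, where 0.489% of all genes were called lower and 0.319% higher. These were Itgb3 (-2.73 ± 0.32, adjusted p = 9.03e-05), Selp (-2.56 ± 0.40, adjusted p = 0.00172) and F2rl2 (-1.68 ± 0.29, adjusted p = 0.00375). Selp lost this call with the mean of its probe sets (adjusted p = 0.091) and F2rl2 in a fit of the compared groups alone (0.0601). The other Selp probe sets gave -2.46 and -2.05 in this interaction (adjusted p = 0.786 and 0.16, over all probe sets). The second F2rl2 probe set gave -1.36 (0.343), and none of them was called. Between LSK GFPhi and LSK GFPneg-lo the effect was higher in LSK GFPhi for 0 genes and lower for 1, where 0.198% of all genes were called higher and 0.115% lower. That gene was F2rl2 (-1.43 ± 0.29, adjusted p = 0.0312), and the call held with 1 of the 12 arrays left out, KO LSK GFPneg-lo replicate 1, and was lost with each of the other 11. It was also lost in a fit of the compared groups alone (adjusted p = 0.160) and with the mean of its probe sets (0.477). The Selp effect was above that in LSK GFPneg-lo by 1.43 ± 0.40, which was not called (adjusted p = 0.264), but was called without WT LSK GFPneg-lo replicate 3 (1.81, adjusted p = 0.0268). The interactions share their LSK GFPneg-lo or LK GFPneg arrays with each other and with the comparisons above.

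The WT populations show how the 10 genes are distributed when Ikaros is present. In WT LSK GFPhi cells 6 genes were lower and 0 higher than in WT LSK GFPneg-lo cells, where 2.89% of all genes were called lower and 1.63% higher, and the median was -1.76 against 0.04. Vwf was lower by 17.0-fold (-4.09 ± 0.52, adjusted p = 3.03e-05) and Pf4 by 13.7-fold (-3.77 ± 0.54, adjusted p = 0.000112). Mmrn1 (-2.54 ± 0.29), Itga2b (-2.52 ± 0.24), Gp5 (-2.04 ± 0.23) and Itgb3 (-1.48 ± 0.22) were lower as well, with adjusted p between 1.17e-06 and 0.000233. Selp (-0.94 ± 0.28, adjusted p = 0.0659) and Gp9 (-0.86 ± 0.31, adjusted p = 0.145) were not called, and both passed under the replicate block (adjusted p = 0.0198 and 0.000806). Selp also passed without WT LSK GFPneg-lo replicate 3 (adjusted p = 0.00381).

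In WT LK GFPneg cells 5 genes were lower and 1 higher than in WT LSK GFPneg-lo cells, where 14.1% of all genes were called lower and 13% higher, and the median was -0.99 against 0.03. Mmrn1 (-2.71 ± 0.29, 6.54-fold, adjusted p = 4.61e-07), Selp (-1.84 ± 0.28), Itga2b (-1.44 ± 0.24), Itgb3 (-1.25 ± 0.22) and Gp9 (-0.89 ± 0.31, adjusted p = 0.035) were the lower ones. Gp5 was the higher one (0.66 ± 0.23, adjusted p = 0.035). Pf4 and Vwf, at -0.85 ± 0.54 and -1.08 ± 0.52, were not called. Pf4 passed in a fit of those 6 arrays alone (adjusted p = 0.0415) and Vwf under the replicate block (adjusted p = 0.0277). The Gp9 call was lost without WT LSK GFPneg-lo replicate 2 (adjusted p = 0.226) or 3 (0.0618) or WT LK GFPneg replicate 1 (0.114) or 3 (0.0832), and after median centring (0.0522) or a further quantile normalization (0.0847). The Gp5 call was lost without WT LSK GFPneg-lo replicate 3 (0.186) or WT LK GFPneg replicate 1 (0.0666) or 3 (0.149).

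In WT LK GFPhi cells 5 genes were lower and 1 higher than in WT LK GFPneg cells, where 8.6% of all genes were called lower and 9.98% higher, and the median was -0.83 against 0. Vwf (-2.66 ± 0.52, adjusted p = 0.000719), Pf4 (-2.41 ± 0.54, adjusted p = 0.00239), Gp5 (-2.23 ± 0.23, adjusted p = 2.29e-07), Mmrn1 (-1.51 ± 0.29, adjusted p = 0.0005) and Itga2b (-1.33 ± 0.24, adjusted p = 0.000354) were lower in the population labelled GMP. Itgb3 was higher there, by 0.70 ± 0.22 (adjusted p = 0.0319). That call was lost without WT LK GFPneg replicate 1 (adjusted p = 0.210), WT LK GFPhi replicate 2 (0.139) or 3 (0.069), in a fit of those 6 arrays alone (0.079), with the mean of the probe sets (0.0758) and under both other scalings (0.0642 and 0.0555). F2rl2 and Gp6 were called in none of the 3 WT comparisons, and Gp6 passed after median centring in LK GFPneg against LSK GFPneg-lo (0.24, adjusted p = 0.0252).

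**Figure D3:**
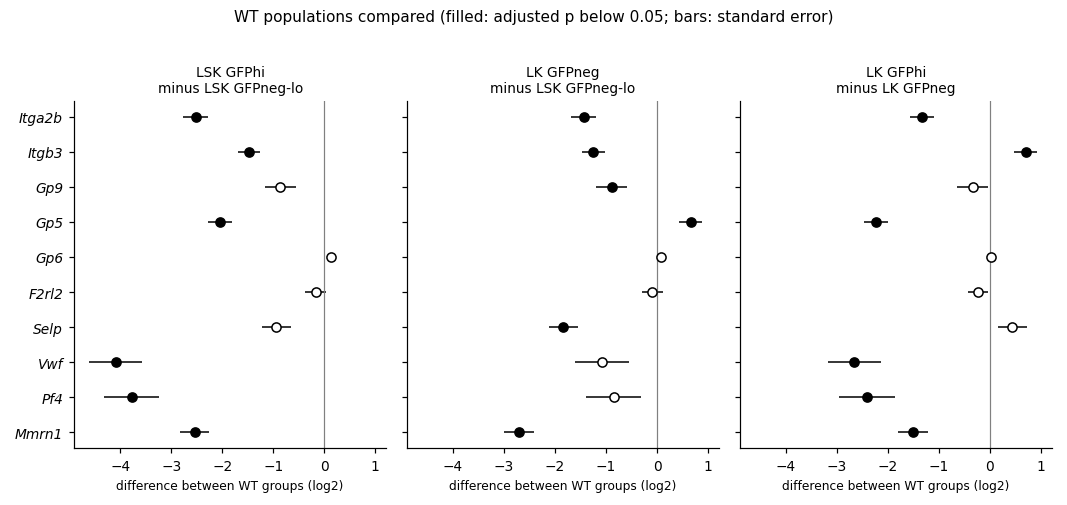
Differences between WT populations (log2) of the 10 genes, with standard errors as bars and filled points for an adjusted p below 0.05. Vwf and Pf4 lie furthest to the left in LSK GFPhi minus LSK GFPneg-lo, at -4.09 and -3.77. Itgb3 and Gp5 have the only filled points right of 0, each in 1 panel.

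The 10 genes did not follow a single pattern. Over the 8 group means, Pearson's r between pairs of them ranged between -0.757 and 0.921 with a median of 0.584 over 45 pairs. The points share arrays and normalization, so this is a description. The highest values were 0.921 for Itga2b and Vwf, 0.878 for Pf4 and Gp5, 0.875 for Vwf and Pf4, and 0.869 for Itgb3 and Selp. Selp and Gp5 had r = -0.237, the lowest among the pairs without Gp6. The minimum of -0.757 was that of Gp6 and Mmrn1. Every pair with Gp6 had a negative r, and the group means of Gp6 spanned only 0.28. Among 2411 other genes with an SD of at least 0.5 over the group means, the nearest to Selp were Thy1 (r = 0.997), Wtip (0.996) and Cracr2b (0.994). The nearest to Vwf were Trim47 (0.963), Gadd45g (0.963) and Tek (0.948), to Mmrn1 Mycn (0.985), Txnip (0.983) and Rhobtb3 (0.973), and to Itgb3 Fut8 (0.97), Lima1 (0.941) and F5 (0.939). Within several groups, most of the 10 genes had their highest value on the same array. Replicate 2 had the highest value of the group for 8 of the 10 genes in KO LSK GFPneg-lo, for 7 in KO LSK GFPhi, for 7 in KO LK GFPneg and for 7 in WT LSK GFPneg-lo, and replicate 3 did so for 6 in KO LK GFPhi and for 6 in WT LK GFPneg. These counts include Gp6 and were not made over all genes, so whether such arrays read high in general was not tested.

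Further genes of the lineage were taken as 4 lists. Of 24 other surface proteins 19 were measured, of 18 other granule and secreted proteins 17, of 30 signalling, enzyme and cytoskeleton proteins 28, and of 12 transcription factors 11. Beside the counts below stand the shares of all genes called in KO LSK GFPneg-lo, LSK GFPhi, LK GFPneg and LK GFPhi. These were 1.26%, 2.91%, 1.2% and 5.78% higher, and 0.879%, 1.69%, 1.45% and 3.79% lower. In KO LSK GFPneg-lo cells 3 surface genes rose and 0 fell. They were Treml1 (1.0 ± 0.19), an alpha granule receptor, Clec1b (1.30 ± 0.31), the receptor for podoplanin, and the junction protein gene Esam (0.54 ± 0.13). Of the granule genes 3 rose and 0 fell, namely Clu (3.10 ± 0.21), which encodes the secreted chaperone clusterin, and the coagulation factor genes F5 (1.45 ± 0.21) and F13a1 (1.72 ± 0.38). Of the signalling genes 3 rose and 0 fell, namely Mylk (0.94 ± 0.17), a myosin kinase, Vcl (0.73 ± 0.15), the adhesion protein vinculin, and Rgs10 (1.23 ± 0.29). None of the 11 transcription factors was called, and their median was 0.07.

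In KO LSK GFPhi cells 4 surface genes rose and 0 fell, namely Esam (1.52 ± 0.13), the tetraspanin gene Cd9 (1.94 ± 0.24), the laminin receptor gene Itga6 (1.41 ± 0.19) and F11r (0.76 ± 0.16). Of the granule genes 4 rose and 0 fell, with Clu (2.77 ± 0.21), F5 (1.52 ± 0.21), F13a1 (1.86 ± 0.38) and Sparc (1.81 ± 0.45). Of the signalling genes 3 rose and 0 fell, with Mylk (2.21 ± 0.17), Gng11 (1.49 ± 0.27) and Vcl (0.60 ± 0.15), and 0 of the 11 transcription factors were called. F13a1 is also a gene of monocytes, and in WT cells it was higher in LSK GFPhi than in LSK GFPneg-lo (3.29 ± 0.38).

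In KO LK GFPneg cells most of the calls ran downward. Of the surface genes 0 rose and 2 fell, namely Cd9 (-1.34 ± 0.24) and Itga6 (-0.98 ± 0.19). Ppbp, the gene of another platelet chemokine, fell (-2.56 ± 0.59), and Clu rose (2.95 ± 0.21). Ppbp averaged 6.42 in KO LK GFPneg cells (arrays 6.31 to 6.50), against 8.99 in WT cells (7.66 to 9.88). Of the signalling genes 1 rose and 4 fell, with Rgs18 (-1.23 ± 0.18), Plek (-2.09 ± 0.35), the pleckstrin gene, and Plcg2 (-0.60 ± 0.13) among those that fell and Syk (0.56 ± 0.15) the one that rose. Of the transcription factors 0 rose and 2 fell, namely Gata2 (-0.77 ± 0.18) and Meis1 (-1.23 ± 0.30), which are also genes of stem cells. Gata1, the principal factor of the lineage, averaged 12.19 in KO LK GFPneg cells and 12.12 in WT cells.

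In KO LK GFPhi cells 7 surface genes rose and 1 fell. Those with the smallest adjusted p were Itga6 (1.52 ± 0.19), Esam (1.05 ± 0.13), Cd9 (1.71 ± 0.24) and F2r (1.86 ± 0.27), another thrombin receptor gene. Of the granule genes 3 rose and 1 fell, namely Clu (3.32 ± 0.21), F5 (1.46 ± 0.21) and Vipas39 (0.64 ± 0.16), and Ppbp (-2.46 ± 0.59). Ppbp averaged 6.50 in KO LK GFPhi cells (6.28 to 6.81) and 8.96 in WT cells (7.25 to 10.21). Of the signalling genes 6 rose and 0 fell, with Mylk (2.66 ± 0.17), Syk (0.92 ± 0.15), Lat (0.99 ± 0.18) and Gng11 (1.27 ± 0.27) first. Of the transcription factors 5 rose and 1 fell, with Gata2 (1.39 ± 0.18), Nfe2 (0.86 ± 0.13) and Tal1 (1.09 ± 0.20) higher and Mef2c (-1.06 ± 0.19) lower. Gata1 (2.14 ± 0.45) and its cofactor Zfpm1 (1.25 ± 0.28) rose too, and were named after their values were seen. Gata1 averaged 9.68 in KO LK GFPhi cells (arrays 8.53 to 10.99) and 7.54 in WT cells (7.49 to 7.62). Tested as an interaction, the KO effect in LK GFPhi was above that in LK GFPneg for 1 of the 11 factors and below it for 1. Of all genes, 1.7% were called higher and 0.792% lower in that interaction.

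**Figure D4:**
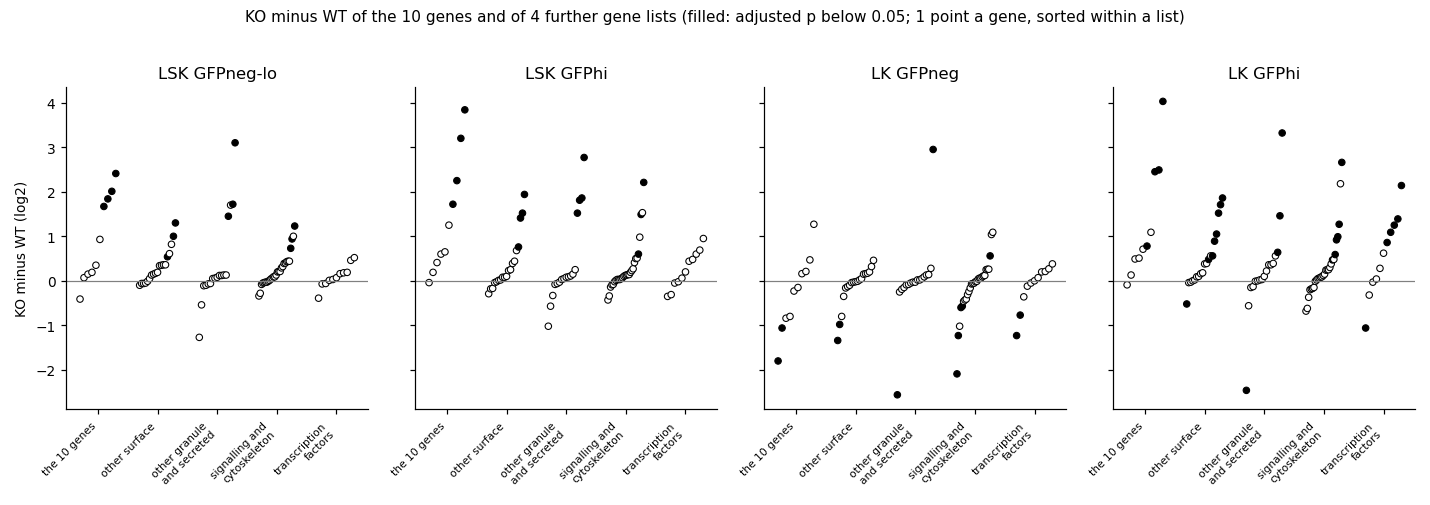
Difference KO minus WT (log2) of the 10 genes and of the genes of 4 further lists in each population, with 1 point a gene, sorted within a list, and filled points for an adjusted p below 0.05. Most points of the lists lie near 0, with list medians between -0.04 and 0.62.

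Markers of other cell types moved with these results. Of all genes, 1.26%, 2.91% and 5.78% were called higher in KO LSK GFPneg-lo, LSK GFPhi and LK GFPhi, and 0.879%, 1.69% and 3.79% lower. In KO LK GFPneg 1.2% were called higher and 1.45% lower. The mean level of 15 endothelial genes was 8.12 to 8.27 over KO LSK GFPneg-lo arrays, 7.96 to 8.06 in KO LSK GFPhi and 7.52 to 7.88 in KO LK GFPhi, against 7.46 to 7.56, 7.05 to 7.18 and 6.81 to 7.04 in the WT groups. In LK GFPneg the ranges overlapped, at 6.88 to 7.11 in KO and 6.72 to 6.94 in WT. Of the 15, 5, 4 and 5 rose in LSK GFPneg-lo, LSK GFPhi and LK GFPhi, with 0, 0 and 1 falling. Cdh5, which encodes VE-cadherin, led by 4.93 ± 0.13, 5.32 ± 0.13 and 4.72 ± 0.13. Most of the list did not pass, with 10, 11 and 9 genes not called and list medians of 0.35, 0.46 and 0.36. The one that fell in LK GFPhi was Pecam1 (-0.52 ± 0.12). Pecam1 and Esam are also on the list of other surface proteins. Cdh5 averaged 9.62 to 10.31 in those KO groups and 5.49 in KO LK GFPneg, against 4.84 to 4.99 in the WT groups. In LK GFPneg 1 of the 15 rose and 0 fell, namely Cdh5 by 0.53 ± 0.13. Selp, Vwf and Itgb3 rose in the populations with the higher endothelial means, and the part of that shift in their results was not tested. Some stem cell genes rose as well, 3, 3 and 4 of 12 in the same populations, and 1, 1 and 0 fell. Among those that rose were Hoxb5 (0.90 ± 0.17) in LSK GFPneg-lo and Fgd5 (3.90 ± 0.26 and 4.77 ± 0.26) in the GFPhi populations. Ndn fell in LSK GFPhi (-2.01 ± 0.30). The mean of the 12 overlapped in LSK GFPneg-lo, at 10.4 to 10.7 in KO and 10.34 to 10.59 in WT. It was higher in KO in LSK GFPhi (9.39 to 9.52 against 8.73 to 9.06) and LK GFPhi (8.54 to 8.77 against 7.64 to 8.07). In LK GFPneg 0 of the 12 rose and 3 fell, namely Mycn (-1.52 ± 0.36) and the Meis1 and Gata2 given above, which are on both lists. The mean of the 12 was 6.87 to 7.20 over KO LK GFPneg arrays and 7.28 to 7.40 over WT ones, without overlap, in the population where Itgb3, Mmrn1, Cd9 and Itga6 fell. Of 11 mast cell and basophil genes, which again include Gata2, 1, 3 and 6 rose in LSK GFPneg-lo, LSK GFPhi and LK GFPhi, and 0 fell. Of 10 granulocyte progenitor genes 2, 3 and 4 rose there and 0 fell. Of 10 erythroid genes 0, 0 and 1 rose and 0 fell. Of 12 macrophage genes 3, 5 and 3 rose and 0, 0 and 1 fell, and of 12 B and early lymphoid genes 0 rose and 1, 6 and 6 fell. In LK GFPneg 1 mast cell and basophil gene rose and 1 fell, and 0 genes of the granulocyte, erythroid, macrophage and lymphoid lists were called. The part of these cell types in the results was not tested.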

How the data were processed

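Total RNA of sorted cells (6 ug an array) was labelled with biotin and hybridised, per the labels' protocols. The deposited values are log2 signals, made by the authors with RMA per the submitters' processing notes, with the version not given in the sources used here. They ranged from 3.33 to 14.5 over 45101 probe sets on 24 arrays.

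Of these, 64 controls, 932 probe sets with several symbols and 9160 with none were left out, and genes with several probe sets were represented by the brightest on average (18193 genes). The names come from the platform's annotation, which can be old. limma 3.58.1 in R 4.3.3 (lmFit, eBayes) fitted 8 group means over all arrays (16 residual and 3.27 prior degrees of freedom). The 10 comparisons were KO against WT in 4 populations, 3 between WT populations and 3 interactions, two-sided and adjusted by Benjamini and Hochberg over 18193 genes, threshold 0.05. An exact permutation test of 3 against 3 arrays cannot go below 0.1. Arrays without overlap between groups made no call, and the share of all genes without such overlap was not counted. The fit was also run on simulated data whose noise was independent between arrays. Those data lack the correlation of same-numbered arrays described below, so they cannot show its effect on the calls.

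The replicate numbers of the titles pair arrays by the correlation of same-numbered residuals (every pair above 0.1) in all 2-group comparisons except KO against WT in LSK GFPhi, where the lowest was r = 0.0238. The lowest elsewhere was 0.171. With 3 arrays a group, their number limits the precision.

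Named list genes are up to 4 called ones with the smallest adjusted p for each list and comparison, up to 3 for other cell types, and the 3 genes most like each of the 4 members of widest range. The members, lists, comparisons and alternatives were chosen with earlier results of these data known. A filter on the dimmest 40% of genes was passed by 9 of the 10 members, all but Gp6. Alternatives were that filter, a fit of the compared groups only, the replicate block, the Eif2s3y level as covariate, the mean of a gene's probe sets, probe sets ending in _x_at or _s_at left out, trend and robust eBayes, array weights, further quantile normalization, median centring and each array left out.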

Additional observations from a re-analysis of the deposited data

Results flagged for a closer look

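The KO effect differed between populations, by the test of the interaction, for 4, 3 and 1 of the 10 genes in 3 pairs of populations. Between LK GFPhi and LK GFPneg, where 1.7% of all genes were called higher and 0.792% lower, the effect was higher in LK GFPhi for Selp (4.17, adjusted p = 2.69e-06), Mmrn1 (2.29, adjusted p = 0.00217), Itga2b (2.02, adjusted p = 0.00162) and Itgb3 (1.84, adjusted p = 0.00175). These 4 calls held in the 10 alternatives and with each of the 12 arrays left out in turn.

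Between LK GFPneg and LSK GFPneg-lo, where 0.489% of all genes were called lower and 0.319% higher, the effect was lower in LK GFPneg for Itgb3 (-2.73, adjusted p = 9.03e-05), Selp (-2.56, adjusted p = 0.00172) and F2rl2 (-1.68, adjusted p = 0.00375). Selp lost this call with the mean of its probe sets (adjusted p = 0.091) and F2rl2 in a fit of the compared groups alone (0.0601). The other Selp probe sets (-2.46 and -2.05, adjusted p = 0.786 and 0.16) and the second F2rl2 probe set (-1.36, 0.343) were not called. Between LSK GFPhi and LSK GFPneg-lo, where 0.115% of all genes were called lower and 0.198% higher, the effect on F2rl2 was lower in LSK GFPhi (-1.43, adjusted p = 0.0312). That call was lost in a fit of the compared groups alone (adjusted p = 0.160) and with the mean of its probe sets (0.477). Without each of the 12 arrays in turn this last adjusted p was at most 0.120, and the call held in 1 of the 12.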

How the results depend on the processing

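The limits are the 3 arrays a group, the strain and sex makeup that differ between genotypes, and signals with no detection call. The count of members called in KO LK GFPneg against WT was 2 in the fit of all arrays, 1 in a fit of the compared groups only, and 1 to 2 with an array left out. The count for the interaction of LSK GFPhi and LSK GFPneg-lo was 1, and 0 both in a fit of the compared groups only and with the mean of a gene's probe sets, with 0 to 1 over the arrays left out. Of the differences between KO and WT, those that changed sign in some setting were all uncalled, namely Pf4 (-0.14 to 0.59 with an array left out) and Gp5 (-0.11 to 0.37) in LSK GFPneg-lo, Gp9 in LK GFPneg (0.08 with the Eif2s3y covariate), F2rl2 in LK GFPneg (-0.13 with the mean of its probe sets and -0.01 to 0.30 with an array left out), and Gp5 in LK GFPhi (0.04 with the Eif2s3y covariate and -0.30 to 0.08 with an array left out). Of the other comparisons, those that changed sign were also uncalled, namely F2rl2 in WT LK GFPneg minus WT LSK GFPneg-lo (-0.13 to 0.08 over the alternatives), Gp6 in WT LK GFPhi minus WT LK GFPneg (-0.09 to 0.02, and -0.03 to 0.07 with an array left out), and the interactions of Gp9 for LSK GFPhi and LSK GFPneg-lo (-0.48 to 0.17 with an array left out) and of Gp6 for LK GFPhi and LK GFPneg (-0.19 to 0.01 over the alternatives). The replicate block gave counts of members called of 5, 4, 3 and 5 in the KO comparisons of LSK GFPneg-lo, LSK GFPhi, LK GFPneg and LK GFPhi, against 4, 4, 2 and 4 without it, and changed no call other than those named with the results. Over all genes, median centring gave 619 called higher and 1125 lower in KO LK GFPhi (1051 and 689 without it, a shift of -0.13 in the median), 193 and 215 in KO LSK GFPneg-lo (229 and 160), 5647 and 2036 in WT LK GFPneg minus WT LSK GFPneg-lo (2368 and 2566, shift 0.17), 1519 and 2310 in WT LK GFPhi minus WT LK GFPneg (1816 and 1564, shift -0.11), and 253 and 211 in the interaction of LK GFPhi and LK GFPneg (310 and 144, shift -0.11). No called member changed direction under it. The counts over all genes for KO against WT in the same order of populations were 389, 837, 483 and 1740, with 199, 653, 216 and 491 in fits of the compared groups only, 844, 1367, 888 and 4034 with the block, 210, 499, 209 and 1325 with the Eif2s3y covariate and 1120, 1288, 1210 and 3240 with array weights. The causes were not tested.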
